A study of Mus musculus with 13 samples.

Results

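Chromatin accessibility was examined at 7 genes of the Meis, Pbx and Pknox families, Meis1, Meis2, Meis3, Pbx2, Pbx4, Pknox1 and Pknox2, among 55450 annotated genes. They were taken by name from the GENCODE M21 annotation of the mm10 mouse genome. Every called ATAC-seq peak was collected in their promoters, in the gene bodies and within 50 kb on each side. ATAC-seq marks open chromatin through insertion of the Tn5 transposase. The 13 libraries came from cultured oligodendrocyte progenitor cells (OPCs), the dividing precursors of myelinating cells, from AMGFAP-Cre;K27M litters, in which a human GFAP promoter drives Cre in neural stem cells and their progeny and switches on a knock-in H3.3 K27M allele. Brains of pups aged P5 to P7 were pooled by region and genotype, and OPCs were selected on an antibody to PDGFRα and kept in proliferation medium, with no differentiation. Control and K27M cultures were derived from the brainstem (3 libraries each) or from the dorsal telencephalon (3 control and 4 K27M libraries), which comprises cortex, corpus callosum and hippocampus. The peak lists hold no reads, so the knock-in allele itself could not be checked in them.

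Meis, Pbx and Pknox proteins are homeodomain transcription factors of the TALE class, named for a loop extension within the homeodomain. They bind DNA as partners of Hox proteins and of one another, and Meis and Pknox proteins can carry Pbx into the nucleus. In the embryo these complexes work with Hox proteins to pattern the hindbrain, and Meis2 is also used in the developing forebrain, where most Hox genes are silent.

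Lists ran from 16879 peaks in control telencephalon culture 59 to 52466 in control brainstem culture 61. Depth is unknown, because no counts are given, so a peak missing from a list may reflect shallow sequencing as well as closed chromatin, and these cannot be told apart. Promoters of the OPC genes Pdgfra, Olig1, Olig2 and Sox10 carried a peak in all 13 libraries, and that of Cspg4 in 3. Of 4 microglial marker promoters each library had 0 to 2, of 4 endothelial ones 0 to 2, of 4 mature oligodendrocyte ones 0 to 2, of 4 astrocyte ones 1 to 4 and of 4 neuronal ones 3 to 4. The promoters of Csf1r, Cx3cr1, Tek, Mog and Mag had no peak in any library, whereas those of the microglial P2ry12 and the mature oligodendrocyte gene Mbp had one in 12 libraries each and that of the endothelial Flt1 in 11. In these marker lists no promoter passed an adjusted p of 0.05 by region or genotype, and the part of other cells in the results was not tested.

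Of these genes 5 are in the RefSeq promoter table for GRCm38.p6, the assembly of mm10. Of the 5 windows, each running from 250 bases before the start to 50 after it, those of Meis1, Meis3, Pbx2 and Pbx4 overlapped a merged peak, meaning the union of overlapping peaks of all libraries. The Meis2 window overlapped none. The sequences below show the Pbx4 promoter, which carried the strongest promoter peak of the 7 genes, the Pbx2 promoter, which carried the weakest, and the Meis1 promoter. Bases before the RefSeq start that lie in no annotated untranslated region are printed 5′ to 3′ on the strand of the gene, with CpG dinucleotides in capitals.
Pbx4, chr8:69832374-69832490, plus strand: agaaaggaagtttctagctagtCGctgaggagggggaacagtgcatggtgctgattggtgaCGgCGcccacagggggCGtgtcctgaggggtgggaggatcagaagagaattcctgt
Pbx2, chr17:34592009-34592258, plus strand: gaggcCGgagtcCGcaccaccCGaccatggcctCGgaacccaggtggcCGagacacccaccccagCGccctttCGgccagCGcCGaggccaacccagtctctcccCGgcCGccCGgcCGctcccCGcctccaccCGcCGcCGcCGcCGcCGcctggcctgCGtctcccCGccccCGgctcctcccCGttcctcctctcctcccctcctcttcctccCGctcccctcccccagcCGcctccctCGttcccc
Meis1, chr11:19018986-19019219, minus strand: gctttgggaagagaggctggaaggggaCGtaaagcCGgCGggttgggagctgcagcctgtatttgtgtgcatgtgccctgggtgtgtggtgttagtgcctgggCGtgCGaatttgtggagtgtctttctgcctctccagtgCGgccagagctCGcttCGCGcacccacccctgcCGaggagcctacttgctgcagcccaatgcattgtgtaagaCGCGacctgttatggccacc

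The full Pbx2 window held 29 CpGs in 300 bases, more than 87.1% of all 32851 promoters in the table had. The Pbx4 window held 19, the Meis1 window 15, the Meis3 window 21 and the Meis2 window 13, against a median of 7 over all promoters. Each window was searched on both strands for TGACAG, the core recognised by Meis and Pknox proteins, for TGATNNAT, a Pbx-Hox site, and for TGATTGAC, a joint Pbx and Meis or Pknox site. None of the 5 windows held any of the 3 motifs. Over all promoters of that length the shares were 19.2% for TGACAG, 8.85% for TGATNNAT and 0.77% for TGATTGAC.

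Next come a pair of intragenic regions called mainly in brainstem cultures, shown because these were the member peaks of smallest p in the regional test of detection. Each is the stretch shared by the largest number of the libraries' own peaks, read from the plus strand of GRCm38.p6. Capitals mark a match to TGATNNAT on the opposite strand.
Pknox1, chr17:31594628-31594785: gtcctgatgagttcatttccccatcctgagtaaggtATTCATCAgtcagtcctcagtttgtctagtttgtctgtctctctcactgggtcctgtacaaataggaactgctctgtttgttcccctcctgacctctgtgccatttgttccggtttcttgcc
Meis1, chr11:19008071-19008139: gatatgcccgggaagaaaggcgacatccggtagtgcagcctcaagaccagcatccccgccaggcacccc

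The Pknox1 stretch of 158 bases held 1 TGATNNAT match, a motif present in 6.23% of peak centres of that length. The Meis1 stretch of 69 bases held none of the 3 motifs.

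Promoters were defined as 2 kb upstream to 1 kb downstream of any annotated start, and the promoter fold of a gene is the highest fold enrichment of a peak in those windows. The deposited fold compares a peak with the local background of its own library and is averaged over the peak, so broad peaks tend to have lower values. The number of windows ran from 5 at Pbx2 to 16 at Meis2, and neither detection nor fold was adjusted for it. Peaks were present in all 13 libraries at the promoters of Meis1, Meis2, Meis3, Pbx4 and Pknox2, as at 11483 of the 55450 annotated genes. Pknox1 lacked one only in control telencephalon culture 59, which has the shortest list. Pbx2 lacked one in that library and in control brainstem culture 59, and so had a peak in 7 of 7 K27M and 4 of 6 control libraries. With 11 libraries in all, Pbx2 fell outside the range of the detection test.

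Pbx4 had the strongest promoter peak. Its fold was 3.80, 3.82 and 5.13 in control brainstem, 4.51, 3.99 and 3.98 in K27M brainstem, 3.68, 3.25 and 4.75 in control telencephalon, and 3.71, 4.63, 4.26 and 4.06 in K27M telencephalon cultures. All 4 groups overlapped, and culture 61 was highest within both control groups. The mean of 4.12 ± 0.516 (SD, n = 13) exceeded that of 81.7% of the 11483 promoters with a peak in every library.

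Meis3 followed at 3.71 ± 0.497 (SD, n = 13), above 60.7% of those promoters. Its peak spanned chr7:16174673-16176041 and covered the start, coding and untranslated exon sequence. Pbx4 and Meis3 were the genes of the set above the median promoter, whose mean fold was 3.55. Library by library, Pbx4 was above Meis3 in 11 of 13, by 0.409 ± 0.313 in fold (SD, n = 13), and Meis3 above Pknox2 in 12 of 13.

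Pknox2 averaged 3.01 ± 0.474 and Meis1 2.93 ± 0.335 (SD, n = 13 each), above 17.4% and 13.3% of promoters. Pknox2 was above Meis1 in 8 of 13 libraries, by 0.0817 ± 0.509, so this step in the order was smaller than its spread. Meis1 was at 3.06, 2.71 and 2.97 in control brainstem, 3.07, 2.56 and 2.67 in K27M brainstem, 2.90, 2.53 and 3.22 in control telencephalon, and 2.90, 3.68, 2.54 and 3.25 in K27M telencephalon cultures. These ranges overlapped in every pair of groups. The Pknox2 value combines separate promoters: the peak at the start of the gene, chr9:37144094-37148256, averaged 2.51 ± 0.220 (SD, n = 13), and an internal peak at chr9:37085074-37086628, in an intron, averaged 3.05 ± 0.448 (SD, n = 12) and was missing only in control telencephalon culture 59.

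Pknox1 averaged 2.78 ± 0.234 (SD, n = 12), a value that in control brainstem culture 59 came from an internal start. Meis2 averaged 2.52 ± 0.209 (SD, n = 13), above only 2.06% of promoters. Its value too combines separate promoters. In most brainstem libraries it came from an internal peak at chr2:116041744-116043522, and in most telencephalon libraries from the peak at the gene start. The Meis2 peak at the start of the gene, chr2:116065532-116067722, also held the starts of the noncoding genes 2700033N17Rik and G630016G05Rik, so its accessibility cannot be assigned to one of them. Meis1 was above Pknox1 in 9 of 12 libraries and Pknox1 above Meis2 in 10 of 12, by means again smaller than their SDs. Pbx2 was lowest at 2.16 ± 0.140 (SD, n = 11), below Meis2 in 11 of 11 libraries. Its fold was 2.23 and 1.98 in the 2 control brainstem libraries with a peak, 2.15, 2.28 and 2.29 in K27M brainstem, 1.93 and 2.23 in control telencephalon, and 2.22, 1.95, 2.31 and 2.20 in K27M telencephalon cultures. Within its own list the Pbx2 peak never rose above the percentile 4.95, whereas Pbx4 never fell below 80.7.

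**Figure D1:**
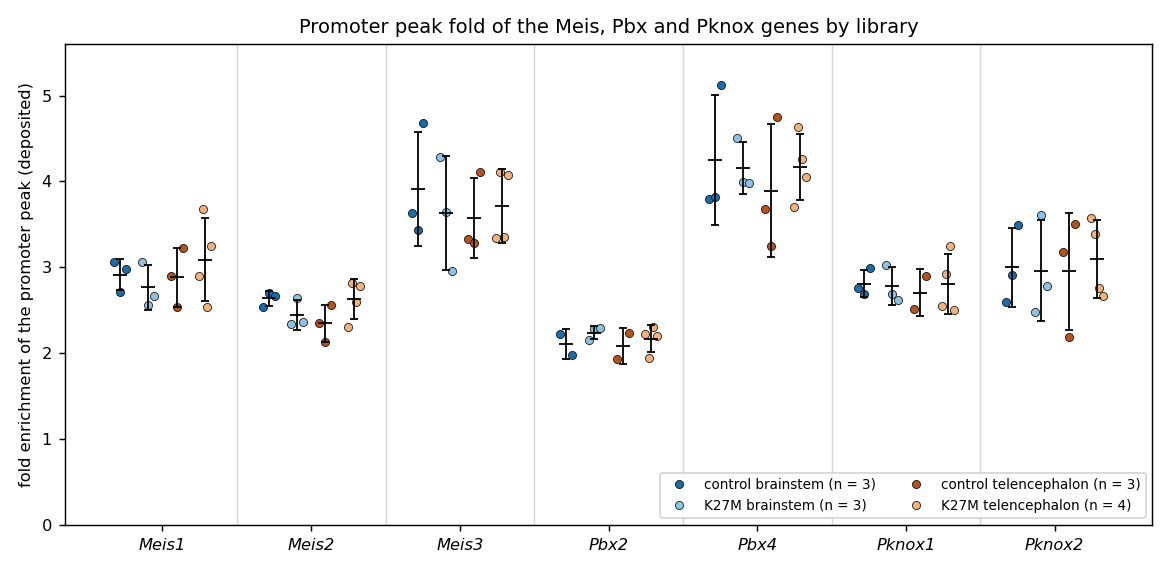
Fold enrichment of the promoter peak (vertical axis, as deposited, no unit) of each gene (horizontal axis). Each point is 1 library, colours give the 4 groups, and bars are the mean ± SD of the libraries with a peak. Pbx4 and Meis3 lie highest and Pbx2 lowest, and the 4 groups overlap within every gene.

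The first comparison asked whether promoter accessibility of these genes differed between brainstem- and telencephalon-derived cultures. It was fitted with limma on log2 fold centred on the median of each library, with group and culture number in the model, across 11483 promoters with a peak in all libraries. Of all these promoters 0.0174% passed an adjusted p of 0.05 by region, and 5.08% had an unadjusted p under 0.05. None of the 5 members in the fit passed either threshold. The largest difference was at Meis1, lower in brainstem by 0.13 on the log2 scale (−0.13 ± 0.0703 SE, 95% CI −0.27 to 0.02, limma adjusted p = 0.952). Meis2 (−0.04, CI −0.18 to 0.10), Meis3 (−0.04, CI −0.19 to 0.10), Pbx4 (−0.02, CI −0.15 to 0.11) and Pknox2 (−0.09, CI −0.28 to 0.10) had limma adjusted p-values of 0.978 to 0.992. All 5 intervals included 0. The widest, at Pknox2, allowed a fold in brainstem between 0.821 and 1.07 times that in telencephalon. The Meis2 estimate partly compares different promoters, since the internal peak gave most brainstem values and the start peak most telencephalon values. Fitted as a merged peak, the start peak differed by −0.11 ± 0.0721 SE (limma adjusted p = 0.854). The internal peak, without control telencephalon culture 59, differed by 0.08 ± 0.0849 SE (limma adjusted p = 0.972).

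Pknox1 was fitted across the 12 other libraries, without control telencephalon culture 59. Its difference by region was −0.03 ± 0.0788 SE (95% CI −0.19 to 0.13, limma adjusted p = 0.999). Pbx2 was fitted across the 11 libraries with a peak, over 13916 promoters, an analysis added after the other results were seen. Its difference by region was −0.03 ± 0.0986 SE (95% CI −0.24 to 0.17, limma adjusted p = 1.00).

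The second comparison asked whether K27M altered these promoters. By genotype 0% of the 11483 promoters passed the adjusted threshold in limma, and 4.35% (499 promoters) had an unadjusted p under 0.05. No member was among them. The K27M minus control differences in log2 fold were −0.08 at Meis3 (95% CI −0.24 to 0.08), 0.05 at Meis2 (CI −0.11 to 0.20), 0.02 at Pbx4 (CI −0.12 to 0.16), −0.01 at Meis1 (CI −0.17 to 0.15) and 0.01 at Pknox2 (CI −0.20 to 0.22), with limma adjusted p = 0.999 for each. For Pknox1, again without control telencephalon culture 59, the difference was 0.01 (CI −0.16 to 0.19), and for Pbx2, across its 11 libraries, it was 0.08 (CI −0.17 to 0.33, limma adjusted p = 1.00). The interaction of region and genotype did not pass for any of them. It was largest at Meis2, where K27M minus control was −0.02 in brainstem and 0.12 in telencephalon, a difference of −0.15 ± 0.138 SE (95% CI −0.43 to 0.14, limma adjusted p = 1.00). This value also mixes the Meis2 promoters. The interaction was −0.10 ± 0.144 SE at the start peak, and −0.03 ± 0.164 SE at the internal peak without control telencephalon culture 59.

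**Figure D2:**
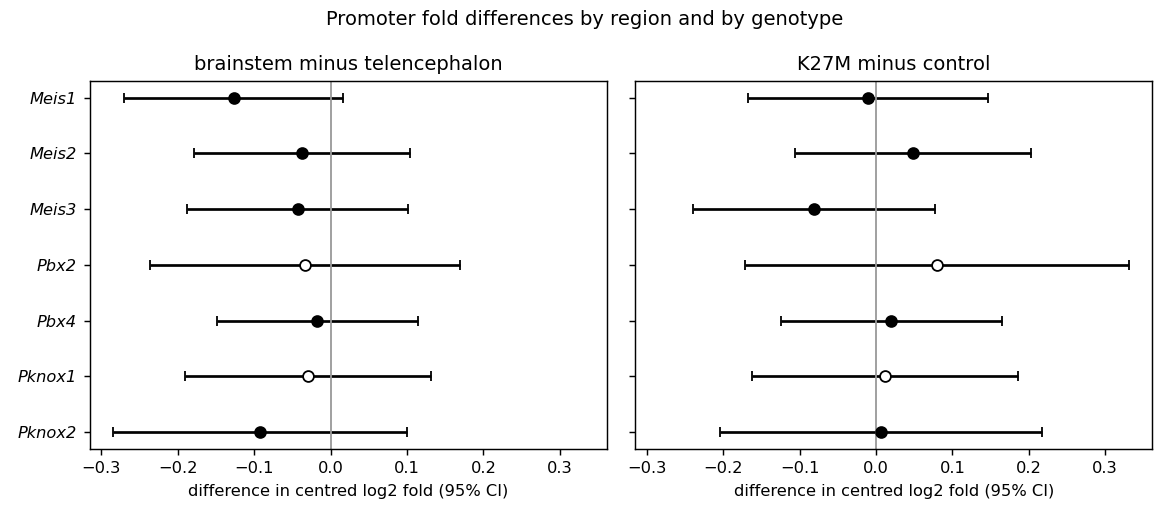
Differences in centred log2 fold of the promoter peak (horizontal axes) for the 7 genes (vertical axis), brainstem minus telencephalon on the left and K27M minus control on the right. Points are limma estimates and bars 95% confidence intervals, and open symbols mark Pknox1 and Pbx2, fitted without the 1 and the 2 libraries that lack their peak. All 14 intervals include 0.

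The 7 loci, each gene with 50 kb on either side, held 130 of the 99746 merged peaks. Of these, 16 lay in a promoter, 58 elsewhere in a gene body and 56 in the flanks, and 23 covered the start of another gene. At the 7 loci 15.4% of merged peaks were found in all 13 libraries and 26.2% in 1 library only, against 13.1% and 43.1% over the genome. The largest number stood at Pknox2, with 35, of which 27 were intragenic outside promoters. Meis2 had 27, Meis1 21, Pbx4 14, Pknox1 13, Pbx2 11 and Meis3 9. These counts were not scaled to locus length. Pknox2 and Meis2 are the longest of the 7 genes, at 256426 and 202776 bp, and Meis3 and Pbx2 the shortest, at 11415 and 6135 bp.

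Several of the intragenic and flanking peaks were stronger than the promoters they surround. In an intron of Pknox2, 22684 bp from the nearest Pknox2 start, the peak at chr9:37114290-37115476 averaged a fold of 4.18 ± 0.685 and the percentile 90.2 in its lists. It was called in all 13 libraries. In another intron, 29300 bp from a start, the peak at chr9:37052892-37055065 averaged 3.72 ± 0.384. The strongest peak of the 7 loci, at 4.58 ± 0.584 and percentile 96.5 (SD, n = 13), lay outside Pknox2 at chr9:36849671-36850828, within the annotated extent of Fez1. The centre of the first Pknox2 peak, 300 bases at chr9:37114733-37115032, held 1 match to TGATNNAT, a motif found in 11.6% of 99647 peak centres. The centres of all other named peaks were searched in the same way and held no TGATNNAT match. The Meis and Pknox core TGACAG is found in 20.8% of peak centres. Among the named peaks it was present at Meis2 chr2:116041744-116043522, at Pknox1 chr17:31556675-31558507 and chr17:31594516-31595713, and at the peak within Fez1. No named peak centre held TGATTGAC.

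At Meis1 the intronic peak at chr11:18912343-18914069, 98796 bp from a start, averaged 3.27 ± 0.265 (SD, n = 13), and it was called in every library. At Pknox1, 3 flanking peaks were called in every library, and those at chr17:31519522-31520976 and chr17:31556675-31558507 covered the starts of Ndufv3 and Wdr4 and of 4833413E03Rik. Around Pbx2, a compact gene among close neighbours, the peaks called in every library lay at Notch4 (2.91 ± 0.459), at Agpat1 and Rnf5 (3.73 ± 0.316) and at Atf6b (3.42 ± 0.459). They are therefore promoter peaks of those genes within the Pbx2 window.

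The region test on fold covered 13075 merged peaks called in every library, of which 0.0229% passed the adjusted threshold and 6.36% had an unadjusted p under 0.05. Of the 20 member peaks in it none passed, and 1 had an unadjusted p under 0.05. This was an intronic peak of Meis2 at chr2:116019478-116021581, 21516 bp from a start. Its fold was 2.86, 2.66 and 3.47 in control brainstem, 2.59, 2.69 and 2.65 in K27M brainstem, 2.98, 2.51 and 3.40 in control telencephalon, and 2.82, 4.45, 2.79 and 2.88 in K27M telencephalon cultures. Among K27M libraries every telencephalon value lay above every brainstem value, with culture 51 highest of all, while the control ranges overlapped. How often other merged peaks separate the K27M libraries in this way was not counted. The log2 difference was −0.16 ± 0.0711 SE, lower in brainstem (limma unadjusted p = 0.0303, adjusted p = 0.739). It was −0.22 ± 0.0985 SE among K27M libraries (limma unadjusted p = 0.0370, adjusted p = 0.968) and −0.11 ± 0.103 SE among controls, and the interaction did not pass (limma adjusted p = 0.999). Without K27M telencephalon culture 51 the regional difference was −0.14 (limma unadjusted p = 0.0564). Leaving out 1 library at a time moved the limma unadjusted p between 0.0155 and 0.154. Without centring the regional difference was −0.09 (limma unadjusted p = 0.443).

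Between genotypes 0% of these merged peaks passed the adjusted threshold, and 4.48% fell under an unadjusted p of 0.05. Of the 20 member peaks 1 was below that value, the promoter peak of Atf6b at chr17:34646595-34647748 in the Pbx2 flank. Atf6b encodes a transcription factor of the response to unfolded proteins. Its fold was 3.05, 3.35 and 3.61 in control brainstem, 3.69, 3.97 and 3.31 in K27M brainstem, 3.60, 2.29 and 3.03 in control telencephalon, and 3.47, 4.06, 3.68 and 3.37 in K27M telencephalon cultures. The ranges overlapped, with control telencephalon culture 59 lowest. The log2 difference was 0.23 ± 0.0859 SE, higher in K27M (limma unadjusted p = 0.0111, adjusted p = 0.964), and 0.16 without that library (limma unadjusted p = 0.0837).

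Detection was compared by two-sided Fisher's exact test for the features called in 5 to 8 libraries. None of the 7 genes fell in that range by all its promoter windows, and 17 member peaks did. Over the 11706 merged peaks tested, 0% passed an adjusted p of 0.05 by region and 2.36% (276 peaks) had an unadjusted p under 0.05. Among the latter were 2 of the 17 member peaks, at Pknox1 and Meis1, and both were called more often in brainstem. Neither passed the adjusted threshold.

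The Pknox1 peak, chr17:31594516-31595713, lay about 30 kb into the gene over an internal exon and covered the start of a shorter transcript. It was called in 5 of 6 brainstem libraries and in 0 of 7 telencephalon libraries (Fisher's exact p = 0.00466, adjusted p = 0.840). The fold was 2.59, 2.69 and 2.90 in the 3 control brainstem libraries and 2.26 and 2.68 in K27M brainstem cultures 41 and 59, while K27M brainstem culture 61, whose list is the shortest of the brainstem lists, had no call. The calls were weak, with −log10 q of 1.29 to 2.50 against a lowest value of 1.00 in the lists. They did not all coincide: 4 of the 5 shared the 158 bases printed above, and that of control brainstem culture 51 began beyond them. Fisher's exact p lay between 0.00126 and 0.0152 with 1 library left out at a time. When every list was reduced to its 16879 most significant peaks, or to peaks with p at most 1e-10, the peak was left in 0 libraries. With labels exchanged only within matched cultures the exact permutation p was 0.0625. The K27M pair of culture 61 had no call on either side, so 0.0625 is the smallest p that these calls allow.

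The Meis1 peak, chr11:19007306-19009151, lay in an intron, 3773 bp from the nearest Meis1 start, and covered the start of the overlapping transcript gene Gm16140. It was called in 5 of 6 brainstem libraries and in 1 of 7 telencephalon libraries (Fisher's exact p = 0.0291, adjusted p = 1.00). The fold was 2.60 and 2.70 in control brainstem cultures 59 and 61, 2.48, 2.50 and 2.52 in K27M brainstem, and 2.28 in K27M telencephalon culture 51. The −log10 q was 1.08 to 3.16, and 5 of the 6 peaks shared the 69 bases printed above. Leaving out 1 library at a time gave exact p-values of 0.0152 to 0.0801, past 0.05 for 11 of the 13 libraries. This peak too was left in 0 libraries at equal list length or at p at most 1e-10. Exchanging labels within matched cultures gave an exact permutation p of 0.0625. That test leaves out K27M telencephalon culture 51, the only telencephalon library with a call, because it has no brainstem partner. The control pair of culture 51 had no call on either side, so 0.0625 is the smallest p that these calls allow. A neighbouring peak at chr11:19010190-19010714 was called in 3 brainstem and 0 telencephalon libraries, and Meis2 peaks at chr2:116100626-116101661 and chr2:115852789-115853409 in 0 and 3, too few for the test. Of the 18 member peaks in 3 or 4 libraries 5.56% were called only in brainstem and 11.1% only in telencephalon, against 4.89% and 9.55% of 9657 such peaks in the genome.

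By genotype 0% of the 11706 merged peaks passed the adjusted Fisher's test, and 1.26% (147 peaks) had an unadjusted p under 0.05. None of the 17 member peaks was among them. The nearest was an intronic Meis1 peak at chr11:18929895-18931636, called in 5 of 7 K27M and 1 of 6 control libraries (Fisher's exact p = 0.103, adjusted p = 1.00). An intronic Meis2 peak at chr2:115962949-115965510 was called in 4 of 4 K27M telencephalon libraries, 0 of 3 control telencephalon, 0 of 3 K27M brainstem and 1 of 3 control brainstem libraries, and its p was 0.266 by either factor (Fisher's exact test). How many of the tested merged peaks share this pattern was not counted. No member peak separated the regions or the genotypes completely.

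**Figure D3:**
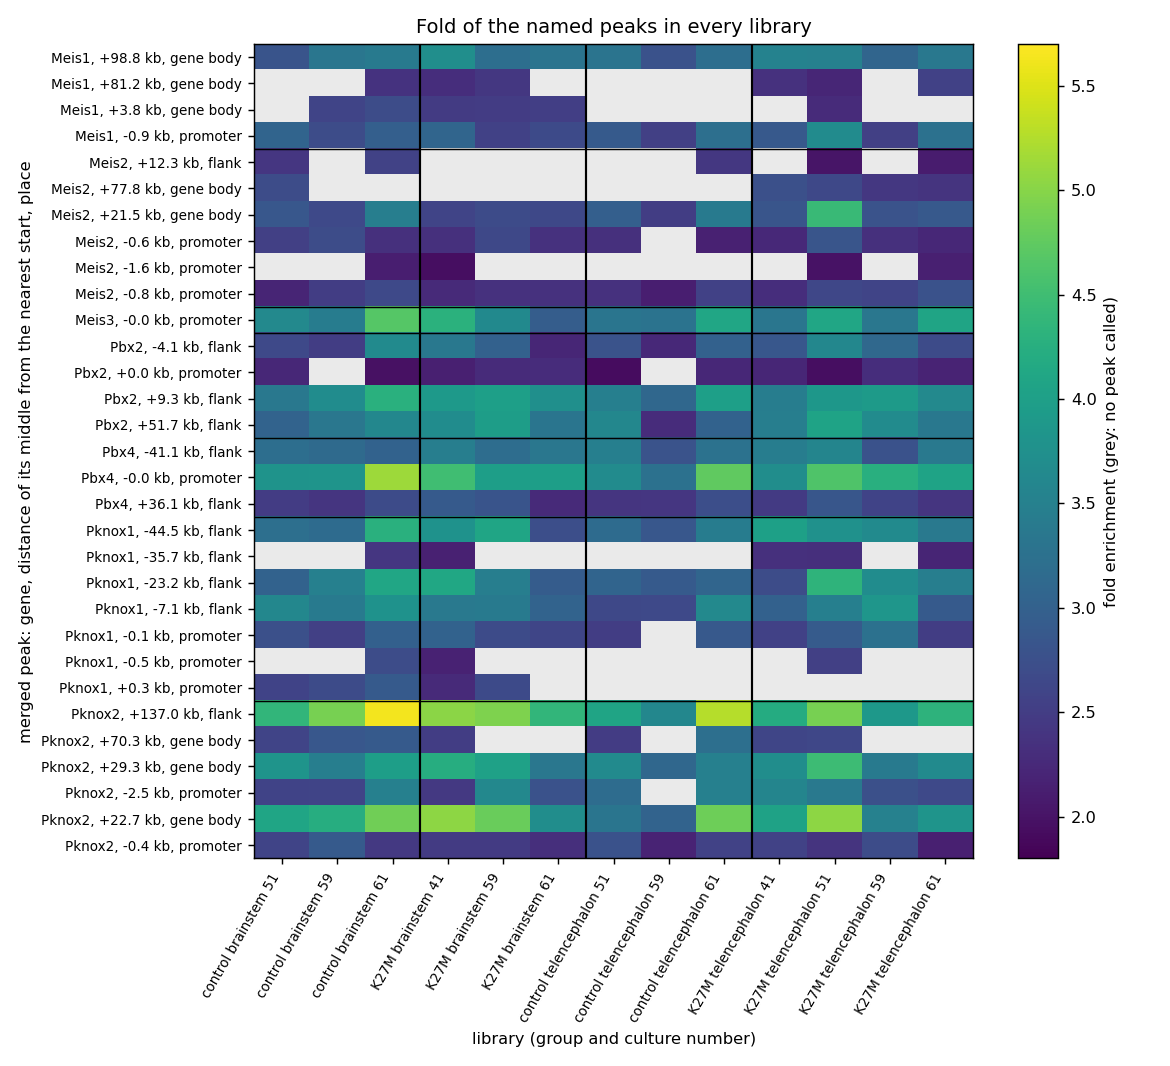
Fold enrichment (colour, no unit) of the named merged peaks (rows, with the distance in kb from their middle to the nearest start of the gene, negative upstream) in the 13 libraries (columns, by group and culture number). Grey marks a library with no called peak. The intronic Pknox2 peak of mean fold 4.18 and the flanking one of 4.58 were strong in every library, and the Pknox1 peak at 0.3 kb from an internal start was called only in brainstem libraries.

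The number of peaks at each locus was set against the length of the list, as peaks per 10000 listed peaks, and tested by two-sided exact permutation within strata over 700 arrangements, for all 21951 protein-coding genes. For region 0% of loci passed the adjusted threshold and 3.6% fell below an unadjusted p of 0.05, and for genotype the shares were 0% and 3.63%. The smallest p the design allows is 0.00143.

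Meis1 had the largest regional difference of the 7 loci relative to its spread. Control brainstem libraries held 2.50, 2.57 and 2.29 peaks per 10000 at Meis1, K27M brainstem 3.09, 3.22 and 3.60, control telencephalon 1.94, 1.18 and 2.43, and K27M telencephalon 2.31, 2.11, 2.31 and 2.37. All brainstem libraries but control culture 61 lay above every telencephalon library. The means were 2.88 ± 0.505 (SD, n = 6) in brainstem and 2.09 ± 0.434 (SD, n = 7) in telencephalon (exact permutation p = 0.00429, adjusted p = 0.980). Within matched cultures the exact permutation p was 0.0625. By genotype the means were 2.72 ± 0.577 in K27M (SD, n = 7) and 2.15 ± 0.523 in control libraries (SD, n = 6), with an exact permutation p of 0.0257 and an adjusted p of 1.00. Leaving out control telencephalon culture 59, which had 2 peaks at Meis1, lowered the genotype difference from 0.564 to 0.371 (exact permutation p = 0.140).

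The regional difference at Meis1 changed direction when the lists were cut to equal length. At equal list length the Meis1 locus held 1 to 3 peaks in brainstem and 1 to 4 in telencephalon libraries, or 1.09 and 1.44 per 10000, a difference of −0.353 (exact permutation p = 0.321). The genotype difference stayed at 0.536 per 10000 in favour of K27M (exact permutation p = 0.113).

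Pknox1 held 2.44 ± 0.176 peaks per 10000 in brainstem (SD, n = 6) and 2.16 ± 0.262 in telencephalon (SD, n = 7), with an exact permutation p of 0.0486 and an adjusted p of 1.00. At equal list length the means were 3.26 and 2.79 per 10000 (exact permutation p = 0.0657). Leaving out 1 library at a time moved the p at Pknox1 between 0.0286 and 0.103. For Meis2, Meis3, Pbx2, Pbx4 and Pknox2 the unadjusted exact permutation p lay between 0.153 and 0.867 over both factors. Meis2 held 3.29 ± 1.12 per 10000 in telencephalon (SD, n = 7) and 2.74 ± 0.758 in brainstem (SD, n = 6), and 1.69 and 0.790 at equal list length (exact permutation p = 0.05).

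**Figure D4:**
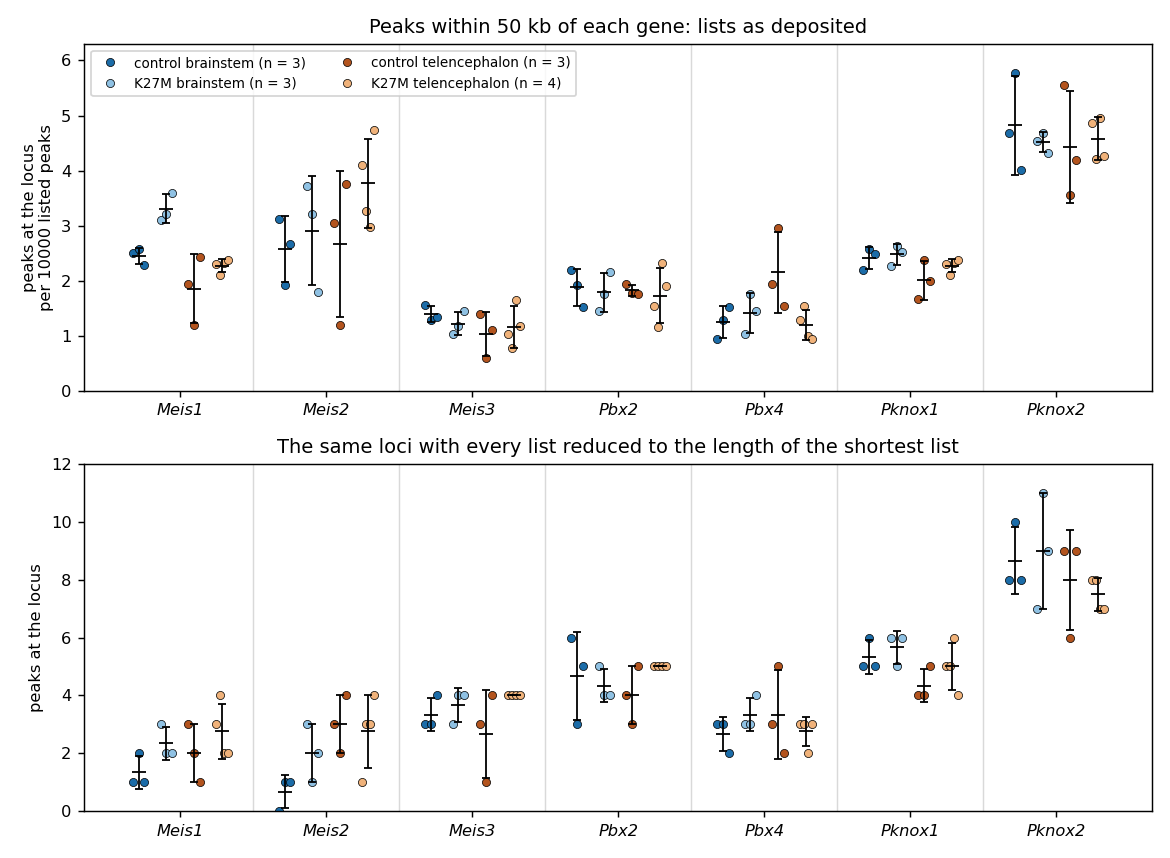
Peaks within 50 kb of each gene. The upper panel gives peaks per 10000 listed peaks in the deposited lists, and the lower panel the number of peaks at the locus with every list reduced to the 16879 peaks of the shortest. Points are libraries, colours groups, bars mean ± SD. The brainstem libraries lie high at Meis1 in the upper panel and not in the lower one.

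**Figure D5:**
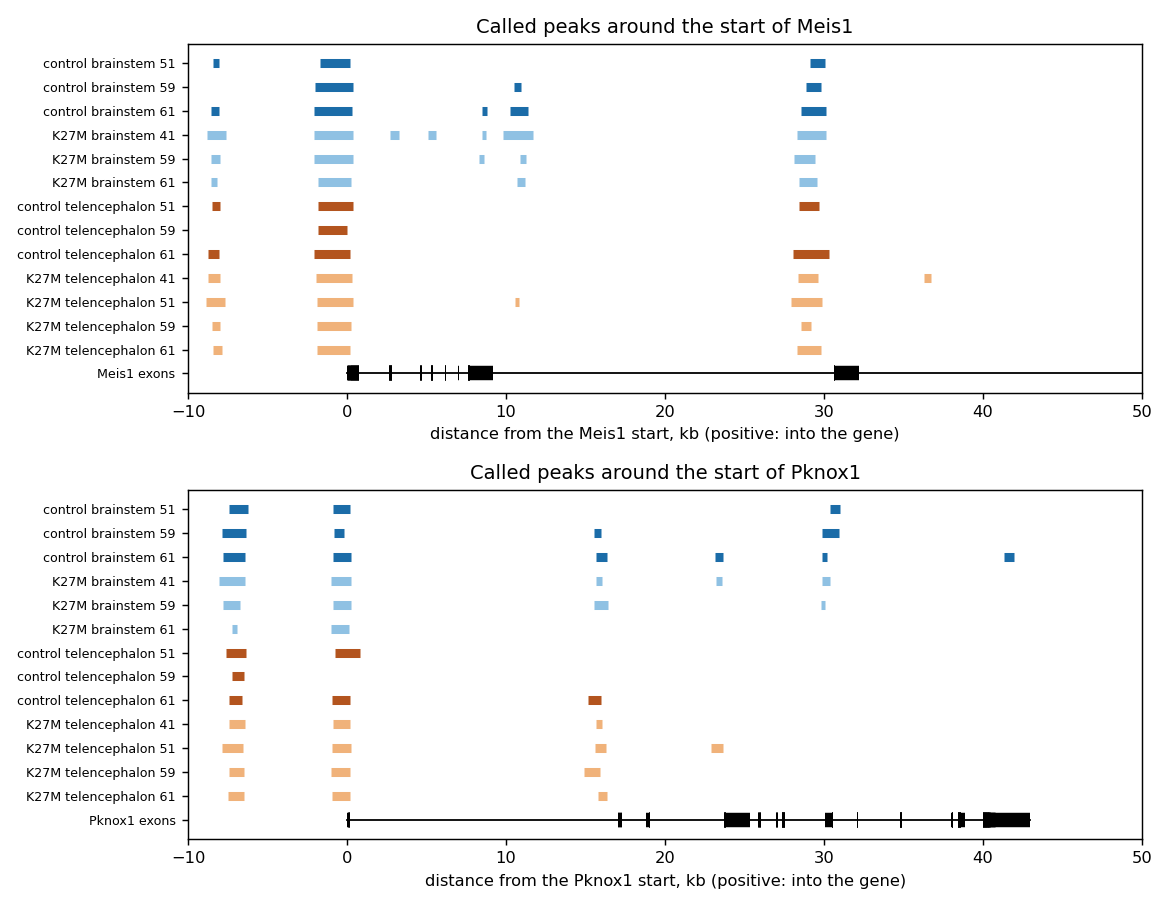
Called peaks (bars) in each library (rows, coloured by group) from 10 kb before to 50 kb after the start of Meis1 and Pknox1, with exons of all transcripts in black. Near 11 kb in Meis1 and near 30 kb in Pknox1 peaks were called in 5 of 6 brainstem libraries, against 1 and 0 of 7 telencephalon libraries.

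Among genes whose products act beside these factors, a list of 25 other TALE-class genes, Hox genes and region-specific transcription factors was read in the same way. Promoter peaks were present in all 13 libraries for 8 of them, among them Pbx3, Tgif1 and Pax6, and in none for Hoxb1. Of the 8, 1 passed in the region test and 0 by genotype. Irx5, a TALE-class gene, was lower in brainstem by 0.46 on the log2 scale (−0.46 ± 0.0694 SE, limma adjusted p = 0.00158), and its window shares a peak with that of Crnde. Crnde, with the same values, was the only other promoter of the 11483 that passed by region, so both calls rest on the same peak. Without centring 0 of the 11483 promoters passed. Irx3 was higher in brainstem by 0.35, short of the threshold (limma adjusted p = 0.0556). The median difference of the 8 was 0.01.

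The Hox promoters of that list were called mostly in brainstem cultures. Hoxa2, which patterns the second branchial arch and hindbrain, was called in 6 of 6 libraries from brainstem and 0 of 7 from telencephalon (Fisher's exact p = 0.000583, adjusted p = 0.212 over 1815 promoters). Hoxb3 was called in 5 of 6 and 0 of 7 (Fisher's exact p = 0.00466, adjusted p = 0.564). For Hoxa4, Hoxb2 and Hoxb4 peaks were found in 4 libraries from brainstem and 0 from telencephalon. In this test 0% of promoters passed by region and 0% by genotype, with 39 and 22 at an unadjusted p under 0.05.

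Over the 13 libraries, the centred promoter fold of the members followed no common course. Pairwise Pearson's r between Meis1, Meis2, Meis3, Pbx4 and Pknox2 ran from −0.347 (Meis3 and Pknox2) to 0.348 (Meis1 and Meis2). The promoters most like Meis1 were Lpcat4 (r = 0.907) and Klhl32 (r = 0.852), and those most like Pknox2 were Dedd (r = 0.875) and Safb2 (r = 0.832). For Meis2 they were Cox6a1 and Gm42903, at r = 0.903 each. For Meis3 they were Pofut1 and Plagl2, at r = 0.852 each, and for Pbx4 Sass6 and Trmt13, at r = 0.855 each. These are descriptions over 13 libraries in which list length and culture vary across all promoters at once, chosen as the highest of 11483 promoters.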

How the data were processed

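Per the labels and the study's methods, the authors trimmed reads with Trim Galore 0.6.7 and cutadapt 3.4, aligned them to mm10 with BWA 0.7.17-r1188 in the nf-core ATAC-seq pipeline, dropped reads in blacklisted regions, and used MACS2 2.2.7.1 to call broad peaks for each library by itself. The deposited fold is a ratio of pileup to local background, the deposited −log10 p-value and q-value are averaged over the peak, and the deposited score repeats the q-value and was used only to check the layout. In these deposited peak lists the authors' values are not scaled across libraries. The cutoff of the calls is not given in the sources used here.

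Promoter windows ran from 2 kb before to 1 kb after every GENCODE M21 start, and overlap of 1 bp counted. Overlapping peaks of all libraries were merged. Folds were tested with limma 3.58.1 in R 4.3.3 (log2, centred on the library median, group and culture number), detection with Fisher's exact test and peaks per 10000 with exact permutation, in Python 3.11.15 with scipy 1.17.1, each over all features with Benjamini-Hochberg adjustment at 0.05. The code was tested on simulated data. The named peaks of a locus were its promoter peaks in at least 3 libraries, the 3 other peaks of highest mean percentile among those in all 13, the 2 of smallest p by each factor and any that separated groups completely. Other peaks in the text were chosen with their values known. The members, lists and tests were chosen with earlier results of these data known, so their p-values are not independent support.

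Culture numbers 41, 51, 59 and 61 occur in several groups, and matched cultures are described in the study, so the number entered the fold model as a block. Deviations from group means correlated at r = 0.0807 on average over 16 same-number pairs of libraries (7 over 0.1) and at −0.0275 over 47 other pairs, over promoters. Nothing states that libraries of a group came from separate litters, so p-values measure the spread between these libraries. Sequences are from RefSeq and GRCm38.p6.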

Additional observations from a re-analysis of the deposited data

Results flagged for a closer look

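Within the 4 K27M telencephalon libraries, 28 sets of values were searched by Dixon's criterion for a library far from the others. The criterion marks about 1 in 20 sets by chance, and it marked 1 here. At the intronic Meis2 peak chr2:116019478-116021581 culture 51 had a fold of 4.447, while the other 3 libraries lay at 2.79, 2.82 and 2.88, and the gap was 0.947 of the range. That library has the longest list of its group, with 52164 peaks, and the part of list length in this value was not tested. The regional difference at this peak with and without the library is given above.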

How the results depend on the processing

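For the member genes, 28 results were recomputed under 470 alternatives. Direction turned in 46 cases, none past the threshold on either side, and the smallest adjusted p was 0.604. By region, promoter log2 differences without centring were 0.0427 at Meis2, 0.0368 at Meis3 and 0.0629 at Pbx4, and by percentile that of Pbx4 was 0.218 points. By genotype the value was 0.0199 at Meis1 without centring, and without the replicate block −0.0170 at Meis2 and −0.0148 at Pknox2. Regional differences in peaks per 10000 at p at most 1e-10 were −0.0394 at Meis1, −0.169 at Meis3, −1.10 at Pbx2 and 0.509 at Pbx4. At equal list length they were −0.353 at Meis1 and −0.0423 at Pbx2, with 10 kb flanks −0.0357 at Meis3 and −0.0482 at Pbx2, and with the replicate block −0.0383 at Pbx2. Genotype differences were 0.103 at Meis3 and 0.0681 at Pbx2 with the replicate block, 0.508 and 0.226 at equal list length, and 0.379 at Pbx4 at p at most 1e-10. The cause was not tested.

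Without 1 library at a time, regional promoter differences ran from −0.0885 to 0.0163 at Meis3, from −0.0337 to 0.00446 at Pbx4 and from −0.198 to 0.0581 at Pknox2. Those by genotype ran from −0.0662 to 0.0307 at Meis1, from −0.000269 to 0.10 at Meis2, from −0.00339 to 0.0421 at Pbx4 and from −0.135 to 0.0520 at Pknox2. Differences in peaks per 10000 ran from −0.0383 to 0.156 at Pbx2 and from −0.0676 to 0.327 at Pknox2 by region, and from −0.153 to 0.0414 at Meis3 and from −0.292 to 0.152 at Pknox2 by genotype.

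Over all features, the 2 promoters called by region were Irx5 and Crnde, which share a peak. That count became 4 without the replicate block, 0 without centring and 0 at p at most 1e-10, and ran from 2 to 6 without 1 library. The 3 merged peaks became 0 without centring, 0 by percentile, 0 at p at most 1e-10 and 1 at equal list length, and ran from 0 to 4 without 1 library. By genotype these counts ran from 0 to 1 and from 0 to 2. Detection and density calls were 0 in every alternative run, the replicate block included. The alternatives were not run for the promoter folds of Pbx2 and Pknox1, which lack a peak in 2 libraries and 1 library and are given above from single fits. Without read counts, depth limits every absence of a peak.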

Other observations

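Some weak calls at these loci fell in 1 genotype. Of the 18 member peaks called in 3 or 4 libraries, 2 were found only in K27M and 2 only in control libraries, or 11.1% each, against 8.88% and 2.81% of 9657 such peaks in the genome. An intronic Meis1 peak at chr11:18963059-18963832, with a mean fold of 2.73 ± 0.229, and a Pbx4 peak at chr8:69918982-69920409 were each called in 3 control and 0 K27M libraries. An intronic Meis2 peak at chr2:116052258-116052931, with a mean fold of 2.57 ± 0.207, was called in 4 K27M and 0 control libraries, and a Pknox2 peak at chr9:37025688-37026187 in 3 and 0. All 4 were found in too few libraries for the detection test and were named with their values known.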
